A study of Mus musculus with 6 samples.

Results

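The regions described here are the promoters at which a peak of open chromatin was called in every library of embryonic mouse palate, whichever tissue the library came from. They were chosen by merging the peaks of the 6 libraries wherever they overlapped by 1 bp or more, and keeping merged regions that held a peak of all 6 libraries and overlapped a start site of a protein-coding transcript. Of 707876 merged regions, 65554 (9.26%) had a peak in all 6 libraries, and 16063 of those (24.5%) overlapped a start site. In 13654 of these a start itself lay under a peak of every library. A start-site peak of a library means a peak inside a merged region that overlaps a start, and it need not cover the start. Because the regions were selected on the presence of a peak, that presence is a description and was not tested. Palatal shelves were taken from C57BL/6 mouse embryos at E14.5, with no transgene or treatment named, and the epithelium was peeled off by hand after trypsin. Both layers of the epithelium, the basal cells and the covering periderm, went into 3 epithelium libraries, and the largely mesenchymal remainder went into 3 mesenchyme libraries. Each library had about 20000 cells pooled from several shelves, and the sources differ on how many. Chromatin was probed by ATAC-seq, in which a transposase cuts and tags accessible DNA.

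A promoter is the stretch of DNA around a transcription start site on which RNA polymerase II and the general factors assemble. Many mammalian promoters lie in CpG islands, stretches that kept their CG dinucleotides because they are unmethylated in the germ line, and such promoters tend to be free of nucleosomes in most cell types. Genes used by every cell usually start in CpG islands, whereas many genes of a single differentiated cell type start in DNA poor in CG and are opened by factors of that cell type.

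The sequences upstream of 5 start sites show the contrast between genes with and without a shared region. They are the 250 bases before the start in RefSeq on GRCm38.p6, the assembly behind mm10, read in the direction of transcription, with every CG dinucleotide in capitals. Psma1 encodes a proteasome subunit (chr7:114276117-114276366, minus strand) and Tbp the TATA-binding protein (chr17:15499638-15499887, plus strand), and both starts lay in a shared region. Alb encodes serum albumin of the liver (chr5:90460620-90460869, plus strand), Prm1 a protamine of sperm (chr16:10796824-10797073, minus strand) and Olfr1 an odorant receptor (chr11:73399496-73399745, minus strand), and none of these 3 had one.
Psma1: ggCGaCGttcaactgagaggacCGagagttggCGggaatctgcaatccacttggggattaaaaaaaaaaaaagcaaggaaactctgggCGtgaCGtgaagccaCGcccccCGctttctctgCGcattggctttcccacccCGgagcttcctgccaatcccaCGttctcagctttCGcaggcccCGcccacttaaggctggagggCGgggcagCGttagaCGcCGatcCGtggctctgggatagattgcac
Tbp: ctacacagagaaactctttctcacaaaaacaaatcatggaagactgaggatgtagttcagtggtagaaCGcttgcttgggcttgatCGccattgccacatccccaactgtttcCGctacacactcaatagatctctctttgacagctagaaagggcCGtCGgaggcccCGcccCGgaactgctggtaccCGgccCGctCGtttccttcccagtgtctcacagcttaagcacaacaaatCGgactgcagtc
Alb: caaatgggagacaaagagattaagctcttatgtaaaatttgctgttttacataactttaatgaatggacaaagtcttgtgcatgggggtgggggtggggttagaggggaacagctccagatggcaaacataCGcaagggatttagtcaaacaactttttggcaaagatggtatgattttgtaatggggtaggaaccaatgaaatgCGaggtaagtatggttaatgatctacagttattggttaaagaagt
Prm1: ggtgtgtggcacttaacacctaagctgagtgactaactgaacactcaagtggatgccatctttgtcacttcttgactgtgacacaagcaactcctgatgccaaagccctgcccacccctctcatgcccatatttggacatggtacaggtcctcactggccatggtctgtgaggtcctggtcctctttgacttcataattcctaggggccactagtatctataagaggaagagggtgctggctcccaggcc
Olfr1: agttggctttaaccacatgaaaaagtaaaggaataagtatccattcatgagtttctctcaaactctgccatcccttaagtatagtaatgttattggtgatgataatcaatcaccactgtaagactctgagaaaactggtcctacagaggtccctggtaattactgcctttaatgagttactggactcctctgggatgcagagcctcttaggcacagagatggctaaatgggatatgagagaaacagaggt
The Psma1 and Tbp sequences held 18 and 11 CG dinucleotides. The Alb sequence held 2, and the Prm1 and Olfr1 sequences held 0. No library had a peak over the start of Alb and 1 had a peak over a start of Olfr1, whereas Prm1 missed the rule by a single library, with a start-site peak in 2 epithelium and 3 mesenchyme libraries.

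A further 4 sequences lie before starts in shared regions whose widths are given below. Those of Krt5 and Prrx1 show that the sequence before such a start need not be rich in CG. Krt5 encodes a keratin of basal epithelium (chr15:101712906-101713155, minus strand), Agrn the basement membrane proteoglycan agrin (chr4:156197489-156197738, minus strand), Diaph3 a formin that builds actin filaments (chr14:87141225-87141474, minus strand) and Prrx1 a homeobox factor of limb and face mesenchyme (chr1:163313651-163313900, minus strand).
Krt5: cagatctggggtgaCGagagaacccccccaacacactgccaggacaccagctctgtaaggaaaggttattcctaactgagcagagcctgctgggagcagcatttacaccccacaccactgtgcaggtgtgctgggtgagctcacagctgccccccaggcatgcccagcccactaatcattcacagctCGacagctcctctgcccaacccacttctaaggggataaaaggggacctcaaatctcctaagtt
Agrn: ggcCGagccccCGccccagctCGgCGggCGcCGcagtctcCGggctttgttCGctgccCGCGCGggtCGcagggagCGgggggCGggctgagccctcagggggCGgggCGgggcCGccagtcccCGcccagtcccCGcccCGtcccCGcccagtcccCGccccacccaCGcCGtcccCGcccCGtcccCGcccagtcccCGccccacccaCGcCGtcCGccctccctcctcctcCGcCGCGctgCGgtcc
Diaph3: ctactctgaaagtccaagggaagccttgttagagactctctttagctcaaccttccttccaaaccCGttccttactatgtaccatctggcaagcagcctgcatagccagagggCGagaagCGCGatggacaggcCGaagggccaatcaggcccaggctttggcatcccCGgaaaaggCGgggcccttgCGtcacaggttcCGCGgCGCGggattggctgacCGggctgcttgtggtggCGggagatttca
Prrx1: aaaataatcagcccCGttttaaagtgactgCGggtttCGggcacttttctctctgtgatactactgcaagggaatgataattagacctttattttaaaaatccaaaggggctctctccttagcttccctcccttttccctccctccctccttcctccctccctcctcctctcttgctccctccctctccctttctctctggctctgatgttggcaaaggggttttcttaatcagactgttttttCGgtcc
Agrn held 35 CG dinucleotides in this stretch and a GC share of 83.6%. Diaph3 held 14, Prrx1 held 4 and Krt5 held 2.

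The lists held 270003 to 349322 peaks per library, with the fewest in epithelium 1 and the most in epithelium 2. Shared start-site regions took 7.91% to 10.8% of a library's peaks and 19.4% to 23% of the bases its peaks covered. The depth in reads is unknown, the peaks carry no height, and a library without a peak at a site may still have reads there. With 3 libraries per tissue, an exact permutation test cannot give a two-sided p under 0.1.

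Which genes start in a region shared by both tissues was read from the annotation. Of 21853 protein-coding genes, 15431 (70.6%) had at least 1 start in a shared region and 6422 (29.4%) had none. Single libraries had a start-site peak at 16281 to 16622 genes (74.5% to 76.1%), so each library on its own reached only slightly more genes than all 6 together. Genes with a single annotated start had a shared region in 59.8% of cases, 4922 of 8236. Genes with several starts had one in 77.2%, 10509 of 13617.

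Genes of the basic machinery of the cell were almost all included. All 34 aminoacyl-tRNA synthetases, which load amino acids onto tRNA, and all 43 subunits of RNA polymerase II and Mediator had a shared start-site region, against 70.6% of all protein-coding genes. So did 84 of 85 ribosomal protein genes, 82 of 85 genes of the respiratory chain and ATP synthase, 47 of 49 proteasome genes and 46 of 47 splicing factors. Several of the genes missing from these families are copies known from testis or muscle. Rpl39l, a testis copy of a ribosomal protein gene, had a peak in 1 library. Cox6a2, a muscle form of a cytochrome oxidase subunit, had peaks in 5 libraries, and Psma8, a proteasome subunit of male germ cells, had peaks in 2. Sf3b5, which encodes a subunit of the splicing complex SF3b, is no such copy, and no library had a peak over its 1 annotated start. Nup160, a subunit of the nuclear pore with 1 annotated start, had a start-site peak in 2 epithelium and 1 mesenchyme libraries.

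Several families used in a few adult cell types lay at the other end. Of 1092 olfactory receptor genes 13 had a shared start-site region (1.19%), and 994 of the others had no start-site peak in any library. Of 327 vomeronasal receptor genes 1 had such a region, Vmn1r4, which shares it with the nucleotidase gene Nt5c3. Of 64 defensin genes 1 was included, of 22 major urinary protein genes 1, and of 38 taste receptor genes 2. None of the 36 late cornified envelope and small proline-rich genes, which build the outer layer of mature epidermis, had one, although Sprr1a had a start-site peak in 3 epithelium libraries and no mesenchyme library. Some of these families hold near-identical copies, between which short reads cannot be told apart. How well reads can be placed in each family was not measured. Lists of other adult genes lay higher. Of 20 brain and eye genes 15 had a shared region (75%), against 70.6% of all protein-coding genes. Of 19 liver, pancreas and gut genes 8 had one (42.1%), and of 20 testis and egg genes 7 (35%).

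**Figure D1:**
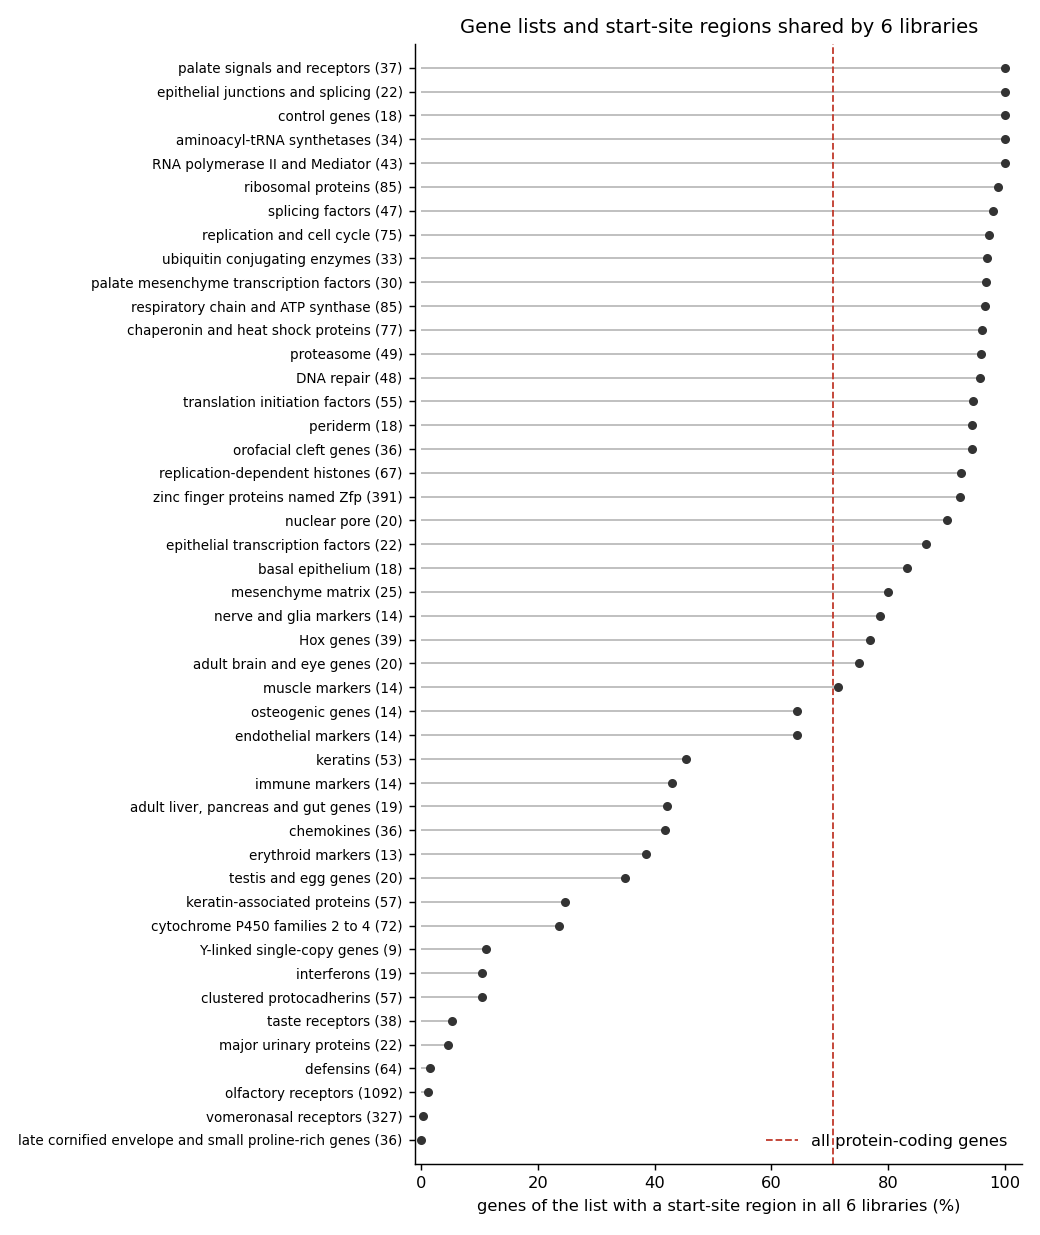
Share of the genes of 46 lists (number of genes in brackets) that had a start-site region with a peak in all 6 libraries, in percent. The dashed line is the share over all protein-coding genes, 70.6%, and the lists of housekeeping families lie between 90% and 100% while the olfactory receptors lie at 1.19%.

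Families of developmental regulators did not behave as a block. Of 39 Hox genes, which pattern the body axis behind the jaw, 30 had a shared start-site region (76.9%). Hoxa5 had start-site peaks in 4 libraries, Hoxa3 and Hoxb2 in 3 each. Of 391 genes named Zfp, which encode zinc finger proteins, 361 were included (92.3%). Clustered protocadherins, whose alternative promoters are chosen singly in neurons, were included in 6 of 57 cases. These were led by Pcdhgc3 with a mean of 2962 bp under peaks, Pcdhgc4 with 1914 bp and Pcdhac2 with 1654 bp, which are C-type members of the cluster. Of 67 replication-dependent histone genes 62 were included, and they stood in 42 distinct regions because neighbouring histone genes often share a region.

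Genes that mark the palate tissues were included from both tissues. All 22 genes of epithelial junctions and splicing had a shared start-site region, as did 17 of 18 periderm genes, 15 of 18 basal epithelium genes and 19 of 22 epithelial transcription factors. On the mesenchyme side, 29 of 30 palate mesenchyme transcription factors, 20 of 25 matrix genes (80%) and 9 of 14 osteogenic genes (64.3%) had one. The share over all protein-coding genes was 70.6%. All 37 palate signals and receptors and 34 of 36 orofacial cleft genes were included.

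Some marker genes lacked one. Trp63, which encodes the epithelial regulator p63, had 3 annotated starts and start-site peaks in 3 epithelium and 0 mesenchyme libraries. Col17a1, a hemidesmosome collagen of basal cells, and Anxa1 each had start-site peaks in 3 epithelium libraries and 1 mesenchyme library, and Dsg3, a desmosomal cadherin gene, in 1 epithelium library. Zfp750, a regulator of keratinocyte differentiation, had 3 and 2, and Tfap2b had 1 and 2. Among matrix genes, Col3a1, Lum and Postn had start-site peaks in 2 epithelium and 3 mesenchyme libraries, and Dcn had 3 and 2. Tbx22, a transcription factor mutated in X-linked cleft palate, and the matrix gene Mfap5 had no start-site peak in any library.

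Markers of other cell types that the peeled tissues could hold were mixed. Of the 14 endothelial markers 9 had a shared region (64.3%), of 14 muscle markers 10 (71.4%) and of 14 nerve and glia markers 11 (78.6%), against 70.6% of all protein-coding genes. Of 14 immune markers 6 had one (42.9%) and of 13 erythroid markers 5 (38.5%). Among the defining genes, Ptprc of leukocytes and Hbb-bt of red cells had no start-site peak in any library. Pecam1 of endothelium and Myf5 of muscle had a start-site peak in 1 mesenchyme library each, and Tek of endothelium in 1 epithelium library. Csf1r, Spi1, Cdh5, Myod1 and Sox10 had a shared region.

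Most genes without a shared start-site region were not near the threshold of the rule. Of the 6422, 4426 (68.9%) had no start-site peak in any library, and 455, 336, 362, 357 and 486 had a best region with a peak in 1, 2, 3, 4 and 5 libraries. Among the 362 with a peak in 3 libraries, those libraries split cleanly by tissue for 85. A best region with peaks in 3 epithelium and 0 mesenchyme libraries was found for 56 genes, and 29 had 0 and 3. The 56 included, picked after their values were seen, Trp63, the keratinocyte lipid transporter gene Abca12, the cornified envelope gene Scel, the growth factor carrier gene Fgfbp1 and the membrane protease genes Tmprss11a, Tmprss11b and Tmprss13. The 29 included, likewise picked, Tie1, a receptor of endothelial cells, and Pf4, a platelet chemokine gene. These names do not stand for the whole sets. The 56 also held Crygc, Pde6c, Cntn6, Spaca7, Prss39 and Lmod2, which are not among the markers. The 29 also held Gckr, Pgc, Cyp11a1, Spem1, Rec8 and Slc14a2. Genes without a shared start-site region were often far from any shared region. The median distance from a start to the nearest region with a peak in all 6 libraries was 34961 bp, 24.9% had one within 10 kb and 73.2% within 100 kb.

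Start-site regions that just missed the rule were narrower than those that met it. There were 917 with a peak in exactly 5 libraries, with a median of 515.2 bp under peaks in the libraries that had one. The library without a peak was epithelium 1 in 260, epithelium 2 in 95, epithelium 3 in 182, mesenchyme 1 in 140, mesenchyme 2 in 136 and mesenchyme 3 in 104. Epithelium 1, which was missing most often, had the shortest list, and epithelium 2, missing least often, had the longest. The narrowest regions inside the rule belonged to B4galt3, a galactosyltransferase gene, with 210 to 279 bp per library, and to Emsy, Calml3, Klk1b21 and Csrnp3, with means of 261 to 281 bp.

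The promoter sequences of genes with and without a shared region were compared in windows of 300 bases, 250 before and 50 after the outermost RefSeq start. A window was found for 16515 genes, 11940 with a shared region and 4575 without. CpG observed over expected is the number of CG dinucleotides divided by the number that the C and G content alone would give. Its median was 0.74 for genes with a shared region, 0.16 for those without and 0.60 over all windows, and the median GC share was 60.7%, 44.3% and 57%. A window was called CpG-rich when its GC share was at least 50% and the ratio at least 0.6. Of 7838 CpG-rich windows, 98.9% belonged to a gene with a shared region, and 33 (0.421%) to a gene with no start-site peak in any library. Of the 8677 other windows 4190 (48.3%) belonged to a gene with a shared region. Each gene had 1 window, and its shared region can lie at another of its starts. Whether the window itself lay in the shared region was not counted. These shares therefore do not show how far CpG content alone separates the groups. Genes with a peak in 5 libraries had a median ratio of 0.25, closer to the 0.14 of genes with no peak than to the 0.74 of genes with all 6.

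**Figure D2:**
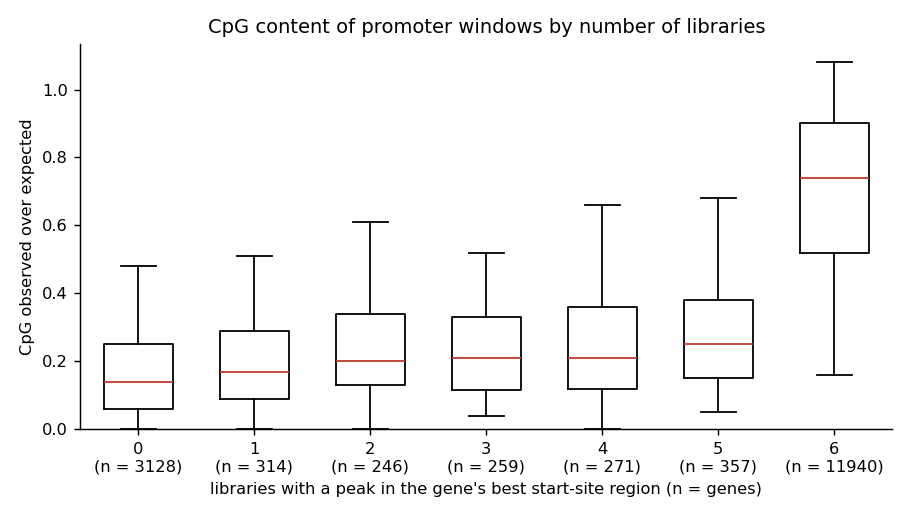
CpG observed over expected in the 300-base promoter window of each gene, by the number of libraries with a peak in the gene's best start-site region. Boxes show quartiles and median, whiskers the 5th and 95th percentile, and the median stays between 0.14 and 0.25 for 0 to 5 libraries and is 0.74 at 6.

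Short sequence words of promoter factors followed the same division. All were counted on both strands in the same windows, and a match is a word and not a binding site. The GC box GGGCGG, the word of Sp factors, stood in 63.5% of windows of genes with a shared region, 7.61% of those without and 48% of all. The ETS word CCGGAAG stood in 16.1%, 2.25% and 12.3%, the NRF1 core CGCATGCGC in 3.33%, 0.393% and 2.52%, the YY1 word AAGATGGCG in 2.71%, 0.197% and 2.02%, and TCTCGCGAG in 1.41%, 0.109% and 1.05%. The CRE word TGACGTCA stood in 3.08%, 0.656% and 2.41%, and the E-box CACGTG in 9.85%, 3.61% and 8.12%. All these words contain CG, so they cannot be read apart from CpG content. The TATA box TATAAA, counted anywhere in the window, stood in 7.01% of windows of genes with a shared region, 28.1% of those without and 12.8% of all. The AP-1 word TGACTCA had the same order, with 3.4%, 7.56% and 4.55%. The NF-Y word CCAAT stood in 38%, 41.1% and 38.8%, so its share hardly differed between the groups.

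A shared start-site region usually served a single gene. It held the start of 1 gene in 14571 cases (90.7%) and of 2 genes in 1420 (8.84%). Of those pairs, 939 (66.1%) were transcribed away from each other, 299 towards each other and 182 on the same strand. The region with the most genes held 9 predicted genes of a repeated family near the end of chromosome 9. The next held 5 each: Maz, Mvp, Pagr1a, Prrt2 and Gm42742 on chromosome 7, Atp5d, Cbarp, Cirbp, Midn and Stk11 on chromosome 10, and Cbr2, Cenpx, Dcxr, Lrrc45 and Rac3 on chromosome 11. In turn 13634 genes had 1 shared region and 1797 (11.6%) had 2 or more, up to 7. The genes with 7 were Mcf2l, a guanine nucleotide exchange factor gene with 17 annotated starts, Myo18a, an unconventional myosin gene with 13, and Tns1, the focal adhesion gene tensin 1, with 11. Arap1 and Dab2ip had 6 each.

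The size of a region was measured as the bases under peaks inside it, counted separately in each library. The mean over the 6 libraries had a median of 1431 bp, with 987 and 2179 bp at the quartiles and 581 and 5018 bp at the 5th and 95th percentiles. In 6219 regions (38.7%) every library had a single peak. The widest was on chromosome X at Mid1 and Gm21887, with 41379 to 42965 bp per library (chrX:169977799-170021037). Mid1 spans the boundary of the mouse pseudoautosomal region. The next was the region of Atp5d, Cirbp and Stk11 on chromosome 10 with a mean of 41292 bp, followed by Gm21119 with 39799 bp, the 9 predicted genes on chromosome 9 with 39128 bp, and Glp1r, a hormone receptor gene, with 37341 bp. Mroh2a, Plec, Gm47283 on chromosome Y, Zfpm1 and the region of Cbr2 and Rac3 completed the 10 widest, with 24616 to 36879 bp. At Mid1, Gm21119, chromosome 9 and Gm47283 the annotated genes are members of repeated families or of the shared part of X and Y, where read placement is uncertain, and their widths varied little between libraries. The Plec region, at the gene of the cytoskeletal linker plectin, had 34498 to 37316 bp in epithelium and 36918 to 38210 bp in mesenchyme.

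Peaks reached further downstream than upstream of the start in all 6 libraries. Over 30826 starts that lay under a peak of every library, the median distance from the start to the upstream edge of the peak was 543, 617 and 548 bp in epithelium 1 to 3 and 561, 561 and 580.5 bp in mesenchyme 1 to 3. To the downstream edge it was 681, 776 and 698 bp, and 725, 727 and 749 bp. The tissues overlapped on both sides. The upstream reach averaged 569 ± 41 bp in epithelium, beside 568 ± 11 bp in mesenchyme, each with the SD over 3 libraries (two-sided exact permutation p = 1). The downstream reach was 718 ± 51 bp and 734 ± 13 bp (exact permutation p = 0.7), with both p-values at 1 after adjustment over the 2 comparisons.

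**Figure D3:**
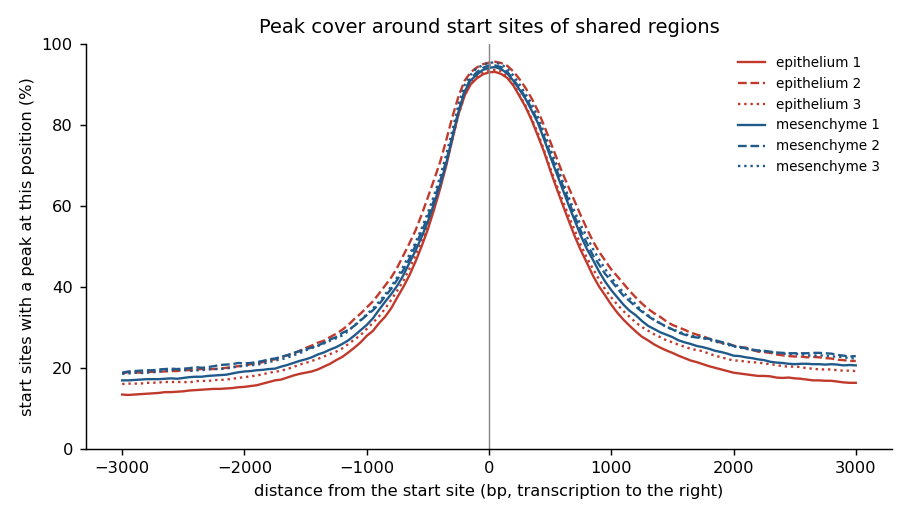
Share of the start sites in shared regions that lie under a peak at each distance from the start, in percent, for each library; distance in bp, with transcription to the right. At the start itself 93% to 95.4% were covered, and the epithelium lines (red) and mesenchyme lines (blue) are interleaved.

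Whether start-site regions were wider in one tissue was asked first over all of them. The median region had 1346, 1532 and 1384 bp under peaks in epithelium 1 to 3 and 1423, 1446 and 1471 bp in mesenchyme 1 to 3. The epithelium libraries lay on both sides of the mesenchyme libraries. The means were 1421 ± 98 and 1447 ± 24 bp (SD, n = 3 each), and the gap between them lay within the spread of the epithelium libraries (two-sided exact permutation p = 0.7). Median widths followed list length within epithelium, where library 1 had the fewest peaks and the smallest median and library 2 the most and the largest, but not within mesenchyme, where library 3 had the largest median and library 2 the most peaks. Divided by the median over the 49491 shared regions without a start site in the same library, start-site regions were 2.06 times as wide in epithelium and 1.92 times in mesenchyme (exact permutation p = 0.2).

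Single regions were compared with limma on log2 width, each library centred on its median over the 65554 shared regions, and p-values were adjusted over all of them. No region passed an adjusted p of 0.05 in either direction, 0% of those tested, and the smallest adjusted p of a start-site region was 0.12. At an unadjusted p under 0.05, 813 start-site regions (5.06%) were wider in epithelium against 5.86% of all regions tested, and 439 (2.73%) narrower against 5.6%. All 3 epithelium libraries lay above all 3 mesenchyme libraries in 2149 start-site regions (13.4%) against 9.93% of all tested, and below in 712 (4.43%) against 7.35%. This balance depended on the centring. The median log2 difference over all regions tested was 0.03 with centring and -0.08 without, and over start-site regions 0.08 and -0.03. Without centring, 1099 start-site regions (6.84%) had all epithelium libraries above, against 6.26% of all tested, and 1361 (8.47%) had all below, against 10.6%. At an unadjusted p under 0.05 the uncentred fit gave 411 start-site regions wider and 744 narrower, in the opposite order to the centred fit. The share over all regions tested was not counted for the uncentred fit, so these counts have no background beside them. A log2 difference below is epithelium minus mesenchyme with centring, with its standard error. The values describe these libraries, and none of the named differences passed the test over all shared regions.

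The start-site region with the smallest p was that of the predicted gene Gm14685 on chromosome X (chrX:73121698-73124093). It had 1744, 2226 and 1790 bp under peaks in epithelium and 301, 401 and 444 bp in mesenchyme, a log2 difference of 2.45 ± 0.25 (limma adjusted p = 0.12). It was also the 1 region past the threshold when start-site regions were fitted alone (limma adjusted p = 0.0309). Over all fits tried, the smallest adjusted p of a start-site region ranged from 0.0309 to 0.348. Krt14, the type I keratin of basal epithelium, followed with 4590, 5475 and 5753 bp against 1135, 2072 and 1375 bp and a log2 difference of 1.93 ± 0.20 (limma adjusted p = 0.12; chr11:100204051-100210556). On average 3.45 times as many bases of this region lay under peaks in epithelium.

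Krt17, a keratin of periderm and of skin appendages, had 4767, 5970 and 5596 bp in epithelium and 3072, 3089 and 3504 bp in mesenchyme, a log2 difference of 0.86 ± 0.10. Agrn, whose CG-dense promoter is shown above, had 7157, 8093 and 8022 bp against 4783, 5288 and 5415 bp, a difference of 0.69 ± 0.09. Diaph3 had 1822, 2272 and 2503 bp against 977, 1171 and 991 bp, a difference of 1.17 ± 0.18. In these 5 regions no epithelium library overlapped a mesenchyme library.

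In the opposite direction the smallest p belonged to Ccdc80, which encodes a secreted matrix-binding protein (chr16:45094045-45096690). It had 371, 383 and 199 bp in epithelium, the last being the width of the narrowest listed peaks, and 1793, 2103 and 1694 bp in mesenchyme, a log2 difference of -2.50 ± 0.34 (limma adjusted p = 0.12). Sema4d, a semaphorin gene, had 637, 878 and 604 bp against 1762, 1755 and 1874 bp at the start of 1 of its transcripts. Aldh16a1, an aldehyde dehydrogenase family gene, had 289, 210 and 245 bp against 879, 910 and 1005 bp. The regions of Grm4, a glutamate receptor gene, and Card14, a signalling scaffold gene, were wide in both tissues. Grm4 had 4256, 4529 and 4204 bp against 6259, 6732 and 7469 bp. Card14, known from skin, had 3715, 4175 and 4261 bp against 5676, 6822 and 7009 bp, so this region had more bases under peaks in mesenchyme.

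**Figure D4:**
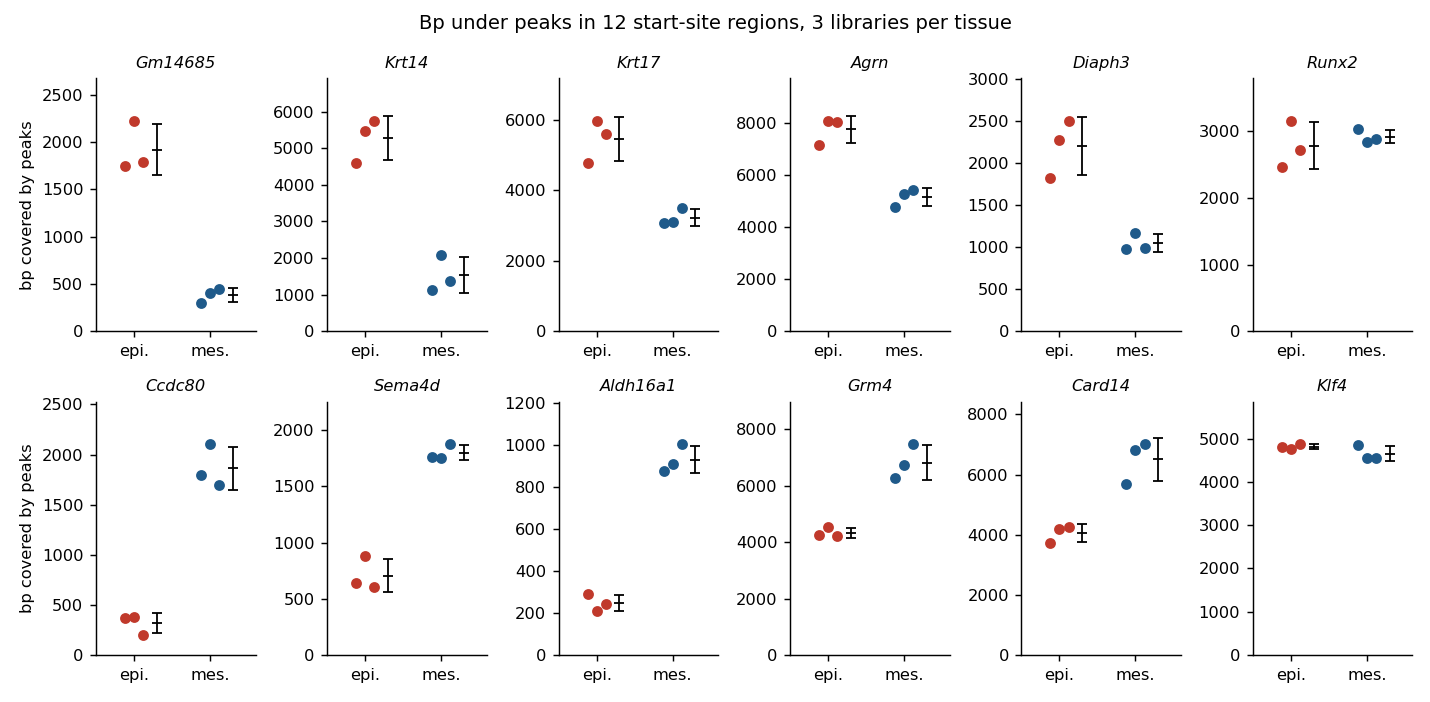
Bases under peaks (bp) in 12 shared start-site regions, the 5 with the smallest p in each direction plus Runx2 and Klf4, with 1 point per library, epithelium (epi.) in red and mesenchyme (mes.) in blue. Black marks are the mean and SD of 3 libraries; the tissues do not overlap in the 10 regions chosen by p, and overlap at Runx2 and Klf4.

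**Figure D5:**
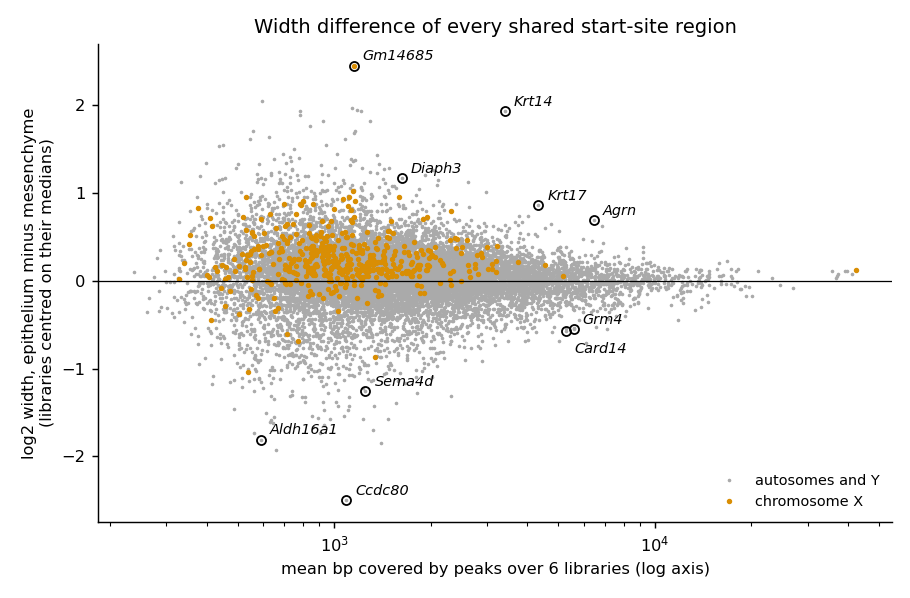
Log2 width difference, epithelium minus mesenchyme with libraries centred, against the mean bases under peaks (log axis) for the 16063 shared start-site regions, with those on chromosome X in orange. The 5 regions with the smallest p in each direction are circled, and the widest regions lie close to 0.

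Start-site regions of epithelial genes leaned towards epithelium in width. Each gene was taken at its widest shared region, and the median log2 difference was 0.08 over all start-site regions and 0.03 over all tested regions. Over all start-site regions 13.4% had all epithelium libraries above and 4.43% all below, against 9.93% and 7.35% of all regions tested. The median was 0.38 over 19 epithelial transcription factors, of which 12 had all epithelium libraries above all mesenchyme libraries and 0 had all below. It was 0.34 over 22 genes of epithelial junctions and splicing, with 10 above and 0 below, 0.34 over 15 basal epithelium genes, with 7 above and 0 below, and 0.28 over 17 periderm genes, with 6 above and 0 below. These lists share genes, and were chosen with earlier results of these data known. Without centring the 4 medians were 0.27, 0.24, 0.24 and 0.17, with 9, 4, 6 and 6 regions above and 0 below.

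Grhl3, a grainyhead-like factor of periderm, had 8025, 8493 and 7662 bp in epithelium and 5977, 5499 and 5349 bp in mesenchyme. Its relative Grhl2 had 3350, 2536 and 3188 bp against 1912, 1755 and 1600 bp, and Grhl1 had 1589, 1639 and 1222 bp against 984, 955 and 967 bp. In all 3 the tissues did not overlap. Ehf, an epithelial ETS factor, had a log2 difference of 1.71 ± 0.34, from 810, 715 and 1002 bp to 336, 271 and 227 bp. The mesenchyme widths at Ehf were close to the narrowest peaks of the lists.

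Among keratins, 24 of 53 had a shared start-site region (45.3%), against 70.6% of all genes, and 6 of the 24 had all epithelium libraries above, against 13.4% of start-site regions. Krt5, whose upstream sequence is shown above, had 3833, 4948 and 4975 bp in epithelium and 3008, 2977 and 3287 bp in mesenchyme. Krt18, a keratin of simple epithelia and periderm, had 2005, 2283 and 1800 bp against 644, 1285 and 1359 bp. Its partner Krt8 had 4133, 4517 and 3921 bp against 4141, 4670 and 4127 bp, and there the tissues overlapped.

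The desmosomal cadherin gene Dsc3 had 1031, 1370 and 862 bp against 348, 416 and 466 bp, and F11r, which encodes a tight junction molecule, had 2111, 2238 and 1483 bp against 1100, 912 and 1009 bp. Cdh1, the gene of E-cadherin, had 1607, 1477 and 2240 bp against 1221, 647 and 1560 bp, with 1 mesenchyme library inside the epithelium range. The epithelial splicing factor gene Esrp1 had 3743, 3749 and 3567 bp against 2333, 3078 and 2335 bp.

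Palate signals and receptors had a median of 0.16, with 12 of 37 above and 0 below, against 13.4% and 4.43% of start-site regions. Without centring it was 0.06, with 6 above and 2 below, so these counts changed with the centring. Fgfr2, a receptor of fibroblast growth factors, had 3721, 5136 and 4950 bp in epithelium and 2687, 2863 and 3272 bp in mesenchyme. Edn1, the gene of endothelin 1, had 2292, 1470 and 1952 bp against 1164, 929 and 686 bp. The widest region of the list was that of the Notch ligand gene Jag2, with 18387 to 25648 bp and overlapping tissues.

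For genes of palate mesenchyme the median log2 difference was 0.03 over 29 mesenchyme transcription factors, -0.01 over 20 matrix genes and -0.02 over 9 osteogenic genes, and without centring -0.07, -0.11 and -0.13. Of the 29 transcription factors 1 had all epithelium libraries above and 2 all below, against 13.4% and 4.43% of start-site regions. The 2 were Barx1, a homeobox factor, with 3357, 3863 and 2886 bp in epithelium and 4114, 5280 and 5600 bp in mesenchyme, and Prrx2, a relative of Prrx1, with 2341, 3551 and 3974 bp against 4993, 5074 and 4978 bp. The 1 above was Snai2, a repressor of epithelial genes, with 2129, 1980 and 1931 bp against 1555, 1259 and 1358 bp.

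At most of the defining mesenchyme genes the widths of the tissues overlapped. Runx2, the regulator of bone formation, had 9 annotated starts and 1 shared region. That region had 2467, 3159 and 2715 bp in epithelium and 3030, 2840 and 2878 bp in mesenchyme, a log2 difference of 0.03 ± 0.12. Any starts of Runx2 outside it were not compared. Twist1 had 1951, 2589 and 2121 bp against 2370, 2228 and 2416 bp, and Col1a1 had 2374, 2900 and 2881 bp against 2917, 2769 and 3253 bp. Prrx1 had 2598, 3182 and 2058 bp against 3445, 3823 and 3163 bp, with epithelium 2 just inside the mesenchyme range. Pdgfra, a growth factor receptor gene, had 3853, 4553 and 4140 bp against 4664, 4562 and 5123 bp, which did not overlap as listed but did after centring. The palate regulator gene Osr2, in the wider of its 2 shared regions, had 1526, 2293 and 2081 bp against 743, 681 and 1903 bp. Klf4, which encodes a factor of barrier formation, had 4802, 4751 and 4867 bp against 4843, 4561 and 4555 bp and overlapped as well. Of the matrix genes, Col6a3 had 601, 908 and 401 bp against 1460, 1368 and 1101 bp, and Sparc, a gene of a matrix-binding glycoprotein, had 2532, 3357 and 2598 bp against 1888, 2475 and 2109 bp.

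Markers of other cell types were also measured by width. Cdh5 of endothelium had 588, 634 and 697 bp in epithelium and 1003, 1357 and 1128 bp in mesenchyme, and Myog of muscle had 944, 803 and 573 bp against 1256, 1194 and 1370 bp, so at both the mesenchyme libraries lay above. Egfl7, another endothelial gene, had 10755, 13258 and 11894 bp against 15390, 15834 and 16256 bp. Other genes of these lists lay the other way after centring. Cldn5 and Sox17 of endothelium had 2725, 3668 and 3616 bp against 2677, 2762 and 2236 bp, and 1958, 2086 and 2110 bp against 1425, 2011 and 1728 bp. Myod1 of muscle had 2531, 3196 and 3530 bp against 2413, 2596 and 2824 bp. Over the whole lists, 2 of 9 endothelial genes had all epithelium libraries above and 2 all below, and muscle genes 1 and 1 of 10. Immune genes had 0 and 0 of 6, nerve and glia genes 4 and 0 of 11, and erythroid genes 0 and 0 of 5. Over all start-site regions 13.4% had all epithelium libraries above and 4.43% all below. The part of these cell types in the widths was not tested, and in bulk tissue fewer cells with an open start and a narrower opening in each cell cannot be told apart. Among 18 control genes the median was 0.12, with 2 regions above and 0 below, near the 0.08 of all start-site regions.

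Housekeeping families had medians near that of all start-site regions. The median log2 difference lay between 0.04 and 0.11 in the 12 families of basic machinery, from 0.04 over ubiquitin conjugating enzymes to 0.11 over respiratory chain and chaperone genes. Their widest regions were often shared with neighbours, such as Polr2h with 8875 bp in a region shared with Clcn2, while Rpl10a had 14694 bp in a region of its own. Proteasome regions were narrow, with a median of 1116 bp. Among the palate lists, epithelial transcription factors had a median of 2942 bp, osteogenic genes 2849 bp and palate signals and receptors 2520 bp. Matrix genes had 2317 bp and mesenchyme transcription factors 2279 bp. These list medians take each gene at its widest shared region. The median of 1431 bp over all start-site regions counts every region, so the 2 measures are not alike.

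The width difference was also described by promoter type. Genes with a CpG-rich window had a median width of 1567 bp and a median log2 difference of 0.09, with -0.27 and 0.42 at the 5th and 95th percentiles. Genes with a shared region and another window had 1327 bp and 0.07, with -0.54 and 0.61. Regions without a start site had a wider spread than start-site regions, from -0.91 to 0.89 against -0.44 to 0.52.

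Start-site regions on chromosome X were set apart in both presence and width. Of 948 protein-coding genes on X, 467 (49.3%) had a shared start-site region, against 60.9% to 81.9% on the autosomes. Y had 4 of 183. The median width on X was 1085, 1170 and 1029 bp in epithelium and 978, 962 and 1019 bp in mesenchyme, and the tissues did not overlap. As a centred log2 width this was 0.51, 0.34 and 0.32 against 0.19, 0.08 and 0.13, a difference of 0.26 (exact permutation p = 0.1, two-sided, the smallest 3 against 3 libraries allow). Without centring the difference was 0.15. Chromosome X was chosen for this test because earlier results of these data had singled it out, so its p-value is not independent support. Of the 462 regions on X, 125 (27.1%) had all epithelium libraries above and 2 (0.433%) all below. The shares were 9.93% and 7.35% over all regions tested, and 13.4% and 4.43% over all start-site regions. Without centring the counts on X were 68 and 7. The uncentred shares were 6.26% and 10.6% over all regions tested, and 6.84% and 8.47% over all start-site regions. The median log2 difference was 0.21 on X and 0.01 to 0.13 on the autosomes. The control gene Pgk1, which lies on X, had 1002, 964 and 936 bp in epithelium and 736, 715 and 767 bp in mesenchyme, and Kdm6a, a histone demethylase gene on X, had 2239, 2145 and 2132 bp against 1804, 2043 and 1979 bp. The sex of the pooled embryos is not given in the labels, and its part in these values was not tested. Of 9 single-copy Y genes, Ddx3y was included, with a mean of 329 bp, and Eif2s3y had start-site peaks in 3 epithelium libraries and 1 mesenchyme library and Uty in 1 and 3.

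Chromosome 11 had the lowest median difference of the autosomes. Its 1334 start-site regions had a median log2 difference of 0.01, with 112 (8.4%) having all epithelium libraries above and 121 (9.07%) all below. The shares were 9.93% and 7.35% over all regions tested, and 13.4% and 4.43% over all start-site regions. Without centring the median was -0.09, with 48 above and 205 below. The uncentred shares were 6.26% and 10.6% over all regions tested, and 6.84% and 8.47% over all start-site regions. The median width was 1414, 1656 and 1524 bp in epithelium and 1589, 1694 and 1674 bp in mesenchyme. As centred library medians the tissues overlapped and differed by -0.01 (exact permutation p = 0.5, two-sided), and without centring by -0.11 (exact permutation p = 0.2). Chromosome 11 was likewise chosen for testing from earlier results of these data. Chromosome 11 carries the type I keratin genes, Krt14 and Krt17 among them, whose regions had all epithelium libraries above.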

How the data were processed

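Per the paper and the tools listed with the samples, the authors used Trimmomatic 0.38 for trimming, Bowtie2 for alignment to mm10, SAMtools for duplicate removal and MACS2 2.1.1 for peaks of each library on fragments under 100 bp. They also name deepTools 2.0. No source used here gives the cutoff for peaks. The deposited lists have 3 columns, chromosome, start and end, as positions in bp, and no score. Short fragments leave out nucleosome-sized ones, and peak edges depend on depth and cutoff.

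Starts came from protein-coding transcripts of GENCODE M21. Width was the number of bp under a library's peaks in a region. Log2 widths were tested with limma 3.58.1 (mean trend, tissue as the 1 term, no replicate block) in R 4.3.3 over all regions with a peak in 6 libraries, with Benjamini-Hochberg adjustment and a threshold of 0.05. The study compared read counts, which need reads. Library medians were compared by an exact permutation test. Scripts used Python 3.11.15, numpy 2.4.6 and pandas 2.3.3, and the width test was checked on simulated data. The regions and all 46 gene lists were chosen with earlier results of these data known. Named genes were those of the 10 widest and 5 narrowest regions, the 5 smallest p-values in each direction, the 5 genes with the most regions and the 5 regions with the most genes, up to 4 genes with and 4 without a region per list, the markers, and Trp63, Krt14, Krt17, Runx2 and Klf4; other genes were named from the lists after their values were seen. A few genes that this rule names are not reported here. Ikbka, Pvrl1, Ahsp and Amy2b of the lists had no match in the annotation. Libraries are called biological replicates in the labels; p-values measure the spread between them.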

Additional observations from a re-analysis of the deposited data

How the results depend on the processing

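The number of shared start-site regions was 16063, and 13210 to 17682 under the 6 other rules of merging, peak width, number of libraries and place of the start, with 13951 to 15917 genes; leaving out 1 library gave 16112 to 16299 regions and 15415 to 15524 genes. Limma called 0 regions wider and 0 narrower in epithelium in each fit, except that a fit on start-site regions alone called 1 wider; leave-one-out fits called 0 and 0. With a replicate block 0 regions were called in either direction, and the paired difference in median width stayed at -26 bp. At an unadjusted p under 0.05 that fit gave 696 start-site regions wider and 423 narrower, and the share over all regions was not counted. The labels do not say whether same-numbered libraries came from the same shelves. Deviations of same-numbered libraries correlated at 0.0243, -0.00732 and -0.0209, which does not decide it. The difference in median width, -26 bp, ranged from -81.67 to 11.33 bp without 1 library, and changed sign without epithelium 1 and when divided by the median of regions without a start (0.1382 as a ratio). Upstream reach differed by 1.833 bp, and by -23 to 14.67 bp without 1 library. Downstream reach differed by -15.33 bp, and by -44.33 to 3.167 bp. Without 1 library the difference on chromosome X ranged from 0.20 to 0.29 and on chromosome 11 from -0.02 to 0.01; without centring they were 0.15 and -0.11. The share of CpG-rich windows was 64.9%, and 69.9% for genes whose start lay under a peak of every library. With 5 libraries enough, 42 of 46 lists kept a count within 1.5 times, and the other 4 gave 23 olfactory receptors, 2 late cornified envelope and small proline-rich genes, 4 defensins and 3 major urinary proteins. Without reads, depth and peak height cannot be weighed, and a start with few reads can fall on either side of the threshold.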
